A study of Mus musculus with 3 samples.

Results

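CpGs that lost most of their methylation in the absence of Dnmt3a were examined in reduced-representation bisulfite sequencing (RRBS) libraries of mouse embryonic stem (ES) cells. Each genotype has 1 library. Wild-type and Dnmt3a KO cells have a mixed 129-C57Bl/6 background, and Dnmt TKO cells, which lack Dnmt1, Dnmt3a and Dnmt3b, are of strain J1. The Dnmt3a KO cells carry a CRISPR/Cas9 deletion that removes both Dnmt3a isoforms. All cells grew in medium with foetal calf serum and LIF, wild type on feeder cells or gelatine and both knockouts on gelatine only. Effects of genotype and of culture cannot be told apart. The per-CpG values cannot show the genotypes or the cell type themselves. CpGs were chosen by 3 limits: over 20 reads in both wild type and Dnmt3a KO, a methylation level (methylated reads among all reads) of at least 60% in wild type, and at most 20% in Dnmt3a KO. This gave 1155 CpGs, called strongly Dnmt3a-dependent CpGs here. They are 3.6% of the 32065 shared CpGs of at least 60% in wild type, called comparison CpGs, and 0.353% of all 327114 CpGs shared by both libraries at this coverage. Of 1388024 CpGs listed in any library, wild type lists 1035670 with a median of 29 reads, Dnmt3a KO 918295 with a median of 17 and Dnmt TKO 558703 with a median of 12.

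In mammals, DNMT3A and DNMT3B place methyl groups on unmethylated CpGs, and DNMT1 copies existing methylation to the new strand after replication. In ES cells DNMT3A and DNMT3B are both present, and most methylated CpGs can be served by either. CpG-rich gene starts are usually free of methylation, and the DNA next to them holds intermediate levels. Bisulfite sequencing reads both methylcytosine and hydroxymethylcytosine as methylated, so a level is the sum of both.

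Strongly Dnmt3a-dependent CpGs often lay side by side, and 4 of the largest clusters are shown with their sequence. Clusters are chains of these CpGs with gaps of at most 1000 bp. Sequences are the plus strand of mm9 with 20 bases on either side. Capitals mark the strongly dependent CpGs, and CpGs in lower case did not meet the limits or the coverage.

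Dnajc5g gene start, chr5:31410621-31410755: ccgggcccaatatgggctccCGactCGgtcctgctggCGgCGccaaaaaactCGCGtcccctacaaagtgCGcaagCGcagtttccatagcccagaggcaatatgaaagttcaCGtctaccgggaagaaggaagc
Intergenic cluster of chromosome 19, chr19:15032258-15032464: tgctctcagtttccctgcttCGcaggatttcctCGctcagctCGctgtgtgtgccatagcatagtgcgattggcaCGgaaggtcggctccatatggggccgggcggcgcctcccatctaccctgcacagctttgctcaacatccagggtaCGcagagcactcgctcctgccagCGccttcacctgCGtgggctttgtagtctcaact
P2rx7 intron, chr5:123103296-123103386: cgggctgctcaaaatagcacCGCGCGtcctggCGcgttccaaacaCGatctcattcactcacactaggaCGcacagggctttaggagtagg
Intu coding exon and intron, chr3:40487237-40487370: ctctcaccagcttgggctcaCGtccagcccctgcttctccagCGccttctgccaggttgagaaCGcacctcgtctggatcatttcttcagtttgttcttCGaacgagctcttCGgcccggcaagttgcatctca

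For contrast, the run of neighbouring comparison CpGs spanning at most 200 bp that holds the most CpGs, each of at least 60% in Dnmt3a KO, is shown next, with those CpGs in capitals. It lies in a coding exon of Gcfc1 and was picked after its values were seen. Its 13 CpGs measured 78.1 to 90.9% in wild type and 63.3 to 90.3% in Dnmt3a KO.

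Gcfc1 coding exon, chr16:91036752-91036898: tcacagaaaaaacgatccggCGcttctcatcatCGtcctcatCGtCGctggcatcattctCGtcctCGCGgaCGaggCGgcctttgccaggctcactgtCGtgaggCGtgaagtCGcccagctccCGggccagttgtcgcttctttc

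The largest cluster held 9 CpGs over 95 bp, chr5:31410641-31410735, across the transcription start of Dnajc5g, which encodes a cysteine-string protein of the DnaJ co-chaperone family. Wild-type levels there ran from 64.6 to 80.4% at 93 to 102 reads. Dnmt3a KO levels ran from 2.38 to 11.8% at 42 to 52 reads. The 9 CpGs had no methylated read among 193 in Dnmt TKO. This allows a level of up to 1.55% only if these reads are independent. Each CpG had 18 to 23 of them within 95 bp, mostly on the same fragments, so the real limit is higher. At the CpG furthest into the gene, position 31410734, 62 of 93 reads were methylated in wild type, 1 of 42 in Dnmt3a KO and 0 of 20 in Dnmt TKO. These 9 were all of the comparison CpGs assigned to Dnajc5g.

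The cluster of 7 CpGs on chromosome 19, chr19:15032278-15032444, was intergenic, and the nearest annotated gene, Tle4, lay 359805 bp away. Its CpGs measured 60.6 to 76.2% in wild type and 3.70 to 19.23% in Dnmt3a KO. Further CpGs between them were as low in Dnmt3a KO but fell short of 60% in wild type, such as position 15032361 with 33 of 60 reads in wild type and 0 of 26 in Dnmt3a KO. Such CpGs are not counted among the 1155.

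In an intron of P2rx7, the gene of an ATP-gated ion channel, 6 of 7 comparison CpGs within 51 bp were strongly dependent. They measured 69.6 to 86.8% in wild type and 9.52 to 19.05% in Dnmt3a KO, where each had 21 reads. The remaining CpG, at position 123103330, had 7 of 21 methylated reads in Dnmt3a KO. Equal read numbers show that these CpGs were mostly read on the same fragments, so they are not separate measurements.

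In Intu, which encodes a planar cell polarity effector needed for cilia, 5 of 5 comparison CpGs over 94 bp met the limits. Wild-type levels were 63.6 to 69.1% and Dnmt3a KO levels 6.67 to 15.4%. Intergenic clusters of 6 CpGs near Cox6a1 on chromosome 5 and of 5 CpGs near Kcng2 on chromosome 18 had the lowest mean Dnmt3a KO levels of the 10 largest clusters, 5.63% and 5.77%. The cluster near Cox6a1 is made of 3 CpGs at each end of 850 bp, with 3, 3 and 7 methylated reads among 43 to 45 at the left end, and 0, 0 and 1 among 24 at the right end. Its ends lie further apart than an MspI fragment of the libraries is long. Intergenic clusters of 5 CpGs at chr8:48477783-48477833 and of 4 at chr5:149632198-149632235 had 64.0 to 78.0% and 64.6 to 86.6% in wild type, and 5.88 to 17.6% and 5.71 to 17.1% in Dnmt3a KO. Across the 10 largest clusters, with 58 CpGs, Dnmt TKO had 0 methylated reads among 974. This allows a level of up to 0.308% only if these reads are independent. CpGs of a cluster share fragments, so the real limit is higher.

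**Figure D1:**
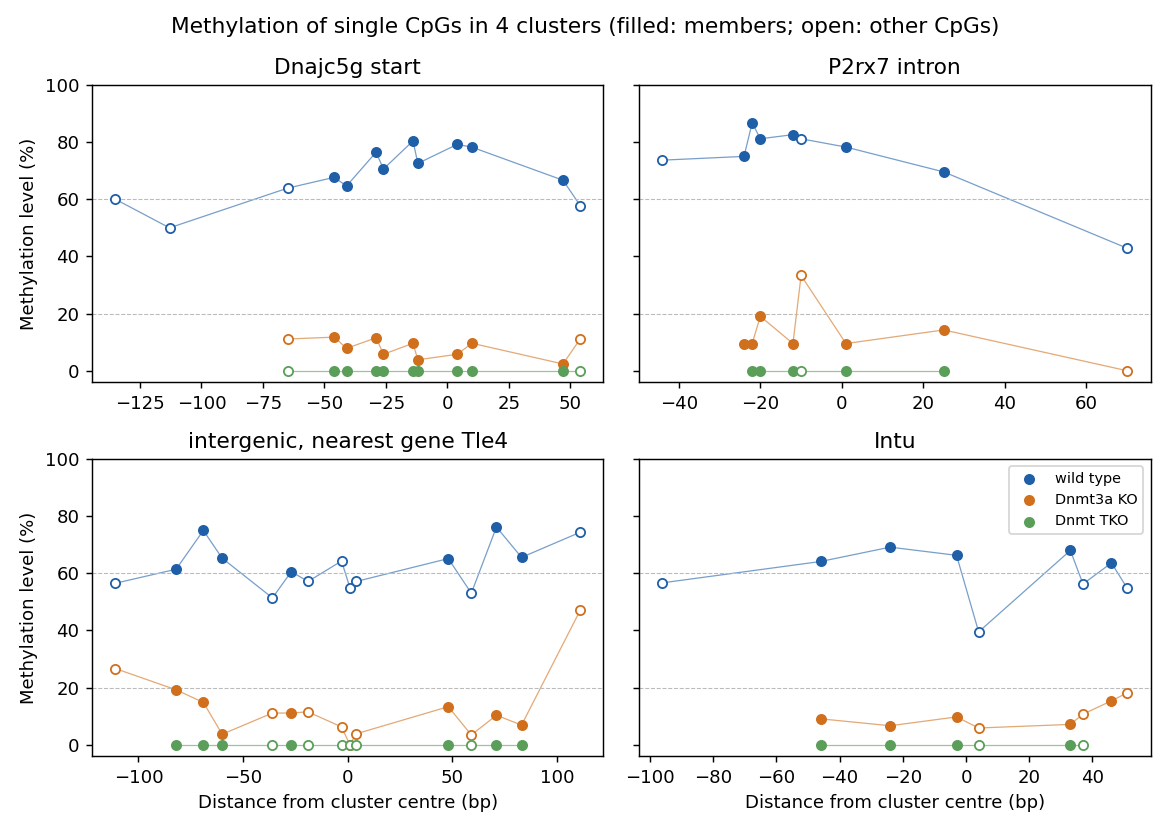
Methylation level (%) of single CpGs in wild type (blue), Dnmt3a KO (orange) and Dnmt TKO (green) against the distance from the cluster centre (bp), for 4 clusters. Filled points are strongly Dnmt3a-dependent CpGs, open points other CpGs with at least 10 reads, lines join CpGs of a library and dashed lines mark the limits of 60 and 20%. In the Dnajc5g cluster all 9 filled Dnmt3a KO points are at or below 11.8% and all 9 filled wild-type points at or above 64.6%.

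Levels in the libraries that chose the CpGs are a description. Strongly dependent CpGs had a mean of 68.3% (SD 6.41, n = 1155 CpGs) in wild type, with a lowest, median and highest value of 60, 66.7 and 92.3%. In Dnmt3a KO the mean was 13.8% (SD 4.81), with values of 0, 14.3 and 20.0%. Median coverage was 65 reads in wild type and 28 in Dnmt3a KO. Over all comparison CpGs the means were 79.6% (SD 8.76) and 61.8% (SD 20.3). Of the other comparison CpGs, 11965 lay between 20 and 60% in Dnmt3a KO and 18945 at 60% or above. The Dnmt3a KO levels of comparison CpGs formed a broad peak, and the strongly dependent CpGs are its lower end, not a separate group. The 10 CpGs just inside the limit measured 20.0% in Dnmt3a KO and the 10 just outside 20.5%. Dnmt3a KO had no methylated read at 20 of the 1155 CpGs, and 279 were at or below 10%.

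**Figure D2:**
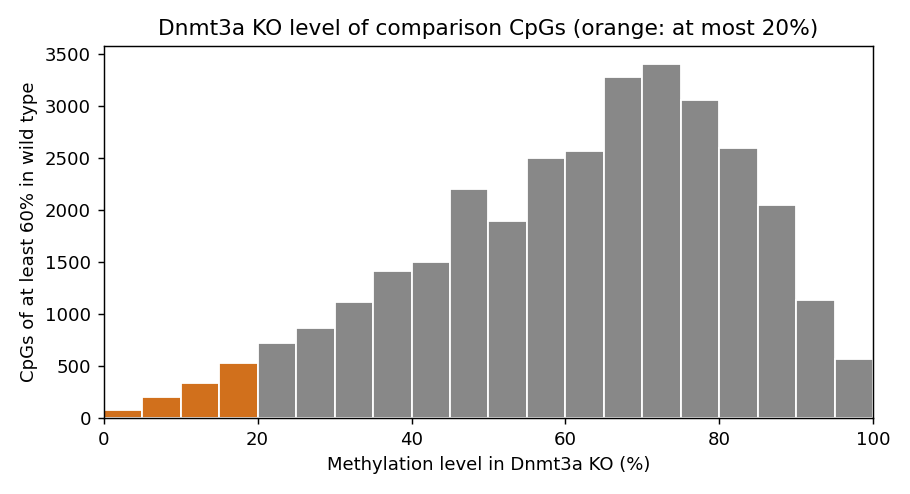
Number of comparison CpGs (vertical axis) by methylation level in Dnmt3a KO (horizontal axis, 5% bins). The 1155 orange CpGs at or below 20% are the left tail of a broad peak.

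Most of the strongly dependent CpGs were near the wild-type limit. Of comparison CpGs at 60 to 70% in wild type, 757 of 5329 (14.2%) were strongly dependent. The share was 3.36% at 70 to 80%, 0.485% at 80 to 90% and 0.139% (5 of 3591) above 90%. A lower wild-type level needs a smaller loss to reach 20%, so shares are given below also within the class of 60 to 70%.

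Choosing CpGs on extreme values overstates the difference, and this was measured by dividing the reads of each CpG at random into equal parts. Among 97938 CpGs with enough reads for this, 171 met all limits in the first part. In that part their pooled Dnmt3a KO level was 12.9%. In the second part, which the choice did not use, it was 19.05% (95% Wilson interval 17.9 to 20.2, 823 of 4321 reads). The wild-type level of the second part was 65.2% (64.2 to 66.2). All 171 CpGs were lower in Dnmt3a KO than in wild type in the second part, and 71 (41.5%) met the limits again. This was the highest share meeting them again among 10 random divisions. Over the 10 divisions, 32.4 to 41.5% met the limits again, the wild-type level of the second part was 62.6 to 65.2% and the Dnmt3a KO level 17.3 to 20.6%. In 4 of the 10, 1 or 2 of the chosen CpGs were not lower in Dnmt3a KO. CpGs chosen on wild type alone went from 78.1% to 59.2% in the second part. The loss therefore held on reads not used for choosing, while the exact membership of a CpG near the limits did not. Both parts come from the same libraries, so the division deals with the counting error of choosing only. Any other difference between the libraries stays in both parts, and intervals cover counting error only.

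In Dnmt TKO, a library the limits did not use, 802 of the 1155 CpGs were listed. They had 27 methylated reads among 12590, a level of 0.214% (0.147 to 0.312). All listed comparison CpGs had 0.298% (0.280 to 0.316), and shared CpGs under 20% in wild type had 0.0441%. At this coverage of at least 10 reads, the interval of the strongly dependent CpGs overlaps that of all comparison CpGs. With over 20 reads in Dnmt TKO the intervals did not overlap. There 125 strongly dependent CpGs had 0.0650% (0.0178 to 0.237, 2 of 3077 reads) and comparison CpGs 0.343% (0.308 to 0.383). Single comparison CpGs reached 94.7%. The Dnmt3a KO level of all 1155 was 13.8% on the reads that chose them, far above either Dnmt TKO level. On reads not used for choosing, the Dnmt3a KO level was 17.3 to 20.6% over the 10 divisions. That range is for the 158 to 188 deeper CpGs chosen in each division, not all of which are among the 1155. Dnmt TKO cells are of another strain, and the part of the enzymes in this difference was not tested.

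Strongly dependent CpGs were close to each other more often than comparison CpGs were close to them. Another strongly dependent CpG lay within 1000 bp of 477 (41.3%), beside 7.29% of all comparison CpGs, 12.6% of those at 20 to 60% in Dnmt3a KO and 1.85% of those at 60% or above. The 1155 CpGs formed 866 clusters, of which 678 held a single CpG, 126 held 2, 41 held 3 and 21 held 4 to 9. Of the 866 runs of comparison CpGs with a strongly dependent CpG, 636 held at least 2 comparison CpGs, and in 60 of these every comparison CpG was strongly dependent. The other runs also held comparison CpGs that did not meet the Dnmt3a KO limit. At 60 to 70% in wild type alone, 31.8% had another strongly dependent CpG within 1000 bp, beside 12.8% of comparison CpGs.

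CpGs within 200 bp can be read on the same fragment, and most of the closeness was within that distance. At over 200 and up to 1000 bp, 45 of the 1155 (3.896%) had another strongly dependent CpG, beside 1.07% of comparison CpGs. Of pairs at 1 to 50 bp from a strongly dependent CpG, 32.8% of the neighbours were also strongly dependent, beside 2.69% around all comparison CpGs. The shares were 20.9 and 2.72% at 51 to 200 bp, and 9.09 and 2.52% at over 200 to 500 bp. At over 500 to 1000 bp they were 23.3 and 2.94%, from 206 pairs around 71 CpGs. Clusters with 2 ends of this spacing, such as those near Cox6a1 and at 1700018B08Rik, are counted there. The mean Dnmt3a KO level of neighbours was 30.3% at 1 to 50 bp and 38.7% at 51 to 200 bp. It was 47.2% at over 200 to 500 bp and 40.3% at over 500 to 1000 bp. Around all comparison CpGs it was 61.6 to 64.1%. These neighbours include strongly dependent CpGs, which are low in Dnmt3a KO by choice. They made up 628 of 1917 pairs at 1 to 50 bp and 48 of 206 at over 500 to 1000 bp. Part of the gap, and of its shape over distance, therefore restates the choice. Means without them were not computed.

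**Figure D3:**
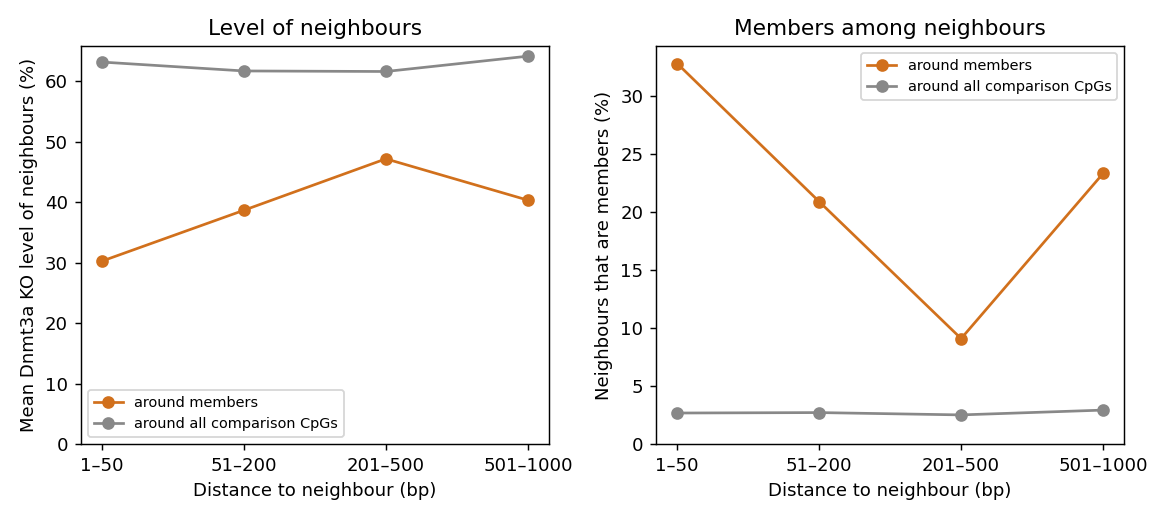
Mean Dnmt3a KO level of neighbouring comparison CpGs (left, %) and share of neighbours that are strongly Dnmt3a-dependent (right, %) by distance in bp, around strongly dependent CpGs (orange) and all comparison CpGs (grey); points are means over pairs. The orange level rises from 30.3% at 1 to 50 bp to 47.2% at over 200 to 500 bp. It stays under the grey line at each distance. Neighbours include strongly dependent CpGs, which are low in Dnmt3a KO by choice, so part of the gap between the lines restates the choice.

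CpGs that could not be chosen were also lower near strongly dependent CpGs. These were CpGs of at least 60% in wild type with only 10 to 20 reads in Dnmt3a KO. Many lie on the same reads as a chosen CpG, so values at short distance are not independent of the choice. The 1497 of them within 1000 bp of a strongly dependent CpG had a pooled Dnmt3a KO level of 44.8% (44.2 to 45.5) and 74.5% in wild type. The 20021 with a comparison CpG but no strongly dependent CpG within 1000 bp had 66.8% (66.6 to 66.9) and 80.6% in wild type. Beyond 200 bp only, where fewer reads can be shared, the Dnmt3a KO levels were 52.1% (50.9 to 53.3, 456 CpGs) and 66.0% (65.7 to 66.3, 5510 CpGs). Fragments reach 350 bp, so some of these CpGs can still share one.

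The base after the CpG differed between strongly dependent CpGs and the rest, a feature that the limits did not use. Biochemical work on DNMT3A has described that the bases next to a CpG affect how well it is methylated. Purines before and pyrimidines after the CpG were described as favoured, and the part of this here was not tested. A CpG has 2 strands, and on each strand the base directly after the CG was read from mm9. MspI sites, whose base after the CpG is fixed, were left out. The base was C on 49.0% of the 2272 strands of strongly dependent CpGs, 34.8% of those at 20 to 60% in Dnmt3a KO and 28.5% of those at 60% or above. It was A on 11.4, 17.7 and 22.1% and G on 18.9, 23.1 and 28.5%, while T took 20.7, 24.4 and 20.9%. Positions further out differed less, with C at the second base after the CpG on 31.9, 30.7 and 27.6% of strands.

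By the bases on both sides, the share of comparison CpGs that were strongly dependent ran from 8.14% for GCGC (230 of 2826) to 0.507% for TCGA (5 of 987). ACGT had 6.47%, GCGA 5.06%, CCGC 4.97% and ACGC 4.62%, each counted with its other strand. ACGA had 2.09%, ACGG 1.76%, CCGG, the MspI site, 0.897% and CCGA 0.613%. The contexts mostly fell in the order of how many strands had a pyrimidine after the CpG. An exception was ACGC, with it on both strands, which stood below GCGA and CCGC, with it on 1 strand. Of the contexts with it on 1 strand, those with C (GCGA and CCGC) stood above those with T (ACGA and ACGG). Strongly dependent were 0.594% (0.421 to 0.837) of comparison CpGs with a pyrimidine on neither strand, 3.69% (3.42 to 3.99) with it on 1 strand and 6.24% (5.72 to 6.80) with it on both. Mean wild-type levels of these classes were 78.9, 79.6 and 80.04%.

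At 60 to 70% in wild type, the shares were 2.92, 15.2 and 24.4%, and mean Dnmt3a KO levels 51.3, 39.7 and 34.0%. In the CpGs with 10 to 20 reads in Dnmt3a KO, none of which could be chosen although some can share reads with a chosen CpG, the shares at or below 20% were 1.10, 3.99 and 6.43%, and 4.01, 14.0 and 23.8% at 60 to 70% in wild type. For the base C alone, the shares without C, with C on 1 strand and with C on both strands were 1.83, 4.90 and 8.14%. They kept this order at gene starts (3.61, 8.89 and 14.2%), in coding exons (1.34, 4.37 and 8.64%), in introns (1.63, 4.77 and 6.69%) and in intergenic DNA (2.29, 4.73 and 7.45%). With at least 10 CpGs in 200 bp they were 2.72, 6.02 and 11.2%, and with 5 to 9 CpGs 1.56, 4.62 and 6.72%. Over 40 reads in both libraries they were 1.92, 5.69 and 13.1%. With C on both strands the share was higher than without C on 18 of 19 autosomes, the exception being chromosome 13 with 1.64% of 61 CpGs against 2.27% of 353. In Dnmt TKO, levels of these classes were 0.345% (0.317 to 0.376), 0.254% (0.229 to 0.280) and 0.299% (0.246 to 0.363), all under 1%. The class without C was highest, as in the mean Dnmt3a KO levels of 64.5, 59.3 and 56.3%. The classes with C were not in that order, and their Dnmt TKO intervals overlap. In the printed sequences, C followed on 9 of 18 strands in the Dnajc5g cluster 7 of 14 in the chromosome 19 cluster and 7 of 12 in P2rx7, but on 3 of 10 in Intu and 8 of 26 in the Gcfc1 run.

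**Figure D4:**
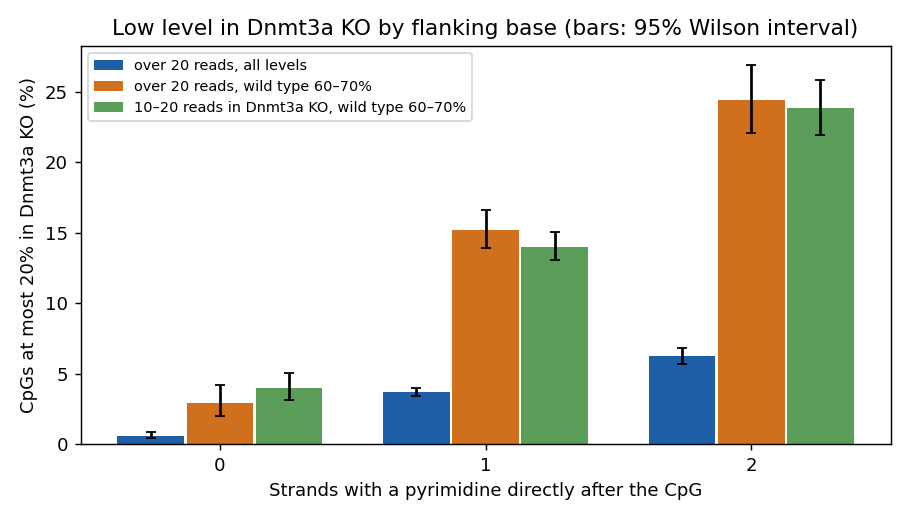
Share of CpGs at or below 20% in Dnmt3a KO (%) by the number of strands with a pyrimidine directly after the CpG, without MspI sites, for comparison CpGs (blue), those at 60 to 70% in wild type (orange) and CpGs of 60 to 70% in wild type with 10 to 20 reads in Dnmt3a KO (green). Bars are shares with 95% Wilson intervals; in all 3 sets the share rises from neither strand to both strands, for green from 4.01 to 23.8%.

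CpG density around the strongly dependent CpGs was slightly higher, with 9.07 CpGs in 200 bp (SD 3.36) beside 8.05 (SD 3.12) for comparison CpGs. The share that was strongly dependent rose from 0.548% (2 of 365) at 1 or 2 CpGs in 200 bp to 5.07% at 10 or more. GC content was close, 58.8% (SD 4.54) and 58.2% (SD 4.59).

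Strongly dependent CpGs were found in all gene parts. Of the 1154 on placed chromosomes, 140 lay within 1000 bp of a protein-coding transcript start, 334 in coding exons, 28 in untranslated exons, 306 in introns and 346 outside genes. Gene starts had the highest share of strongly dependent CpGs, 140 of 2027 comparison CpGs or 6.91% (5.88 to 8.09). Coding exons had 3.16% (2.84 to 3.51), untranslated exons 3.24% (2.25 to 4.64), introns 3.29% (2.94 to 3.67) and intergenic DNA 3.76% (3.39 to 4.17). The wild-type mean at gene starts was 77.1%, lower than the 79.4% of coding exons. At 60 to 70% in wild type the share was 17.7% (14.7 to 21.3) at gene starts and 12.6% (11.2 to 14.2) in coding exons. It was 12.5% (8.32 to 18.4) in untranslated exons, 13.7% (12.0 to 15.6) in introns and 15.8% (14.0 to 17.8) between genes. There the gene start interval overlaps all others except coding exons. At 70 to 80% gene starts had 6.09% (4.50 to 8.18), overlapping only intergenic DNA (3.29 to 4.77). At 80% or above they had 0.827% (0.401 to 1.70, 7 of 846), overlapping every other part. With over 40 reads in both libraries, 19.5% of 149 strongly dependent CpGs lay at gene starts, beside 9.18% of comparison CpGs. By distance to the nearest start, the share was 6.39% within 500 bp, 7.92% at over 500 to 1000 bp and 7.07% at over 1000 to 2000 bp, then 4.36% to 5000 bp and 1.88% over 100000 bp away.

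Near unmethylated DNA the share was higher still. Unmethylated blocks were at least 5 consecutive shared CpGs under 20% in wild type, over at least 300 bp and without a gap over 1000 bp, which gave 5765 blocks. Within 500 bp of a block, 27 of 91 comparison CpGs (29.7%) were strongly dependent, then 25 of 152 (16.4%) at over 500 to 1000 bp, 6.97% at over 1000 to 2000 bp and 2.88% over 50000 bp away. Wild-type means of these intervals rose from 69.6 and 73.5% to 76.5 and 80.2%. At 60 to 70% in wild type the shares were 43.1% (22 of 51), 22.4% (13 of 58), 20.0% and 12.2%. In all, 121 strongly dependent CpGs (10.5%) lay within 4000 bp of a block, beside 4.94% of comparison CpGs. With over 40 reads in both libraries, and blocks drawn again from CpGs of that coverage, this was 2.68% of 149, beside 2.31%. These are too few CpGs to tell whether the difference held at the deepest CpGs. Most strongly dependent CpGs were not at the edge of such blocks, and 514 lay over 50000 bp from any.

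**Figure D5:**
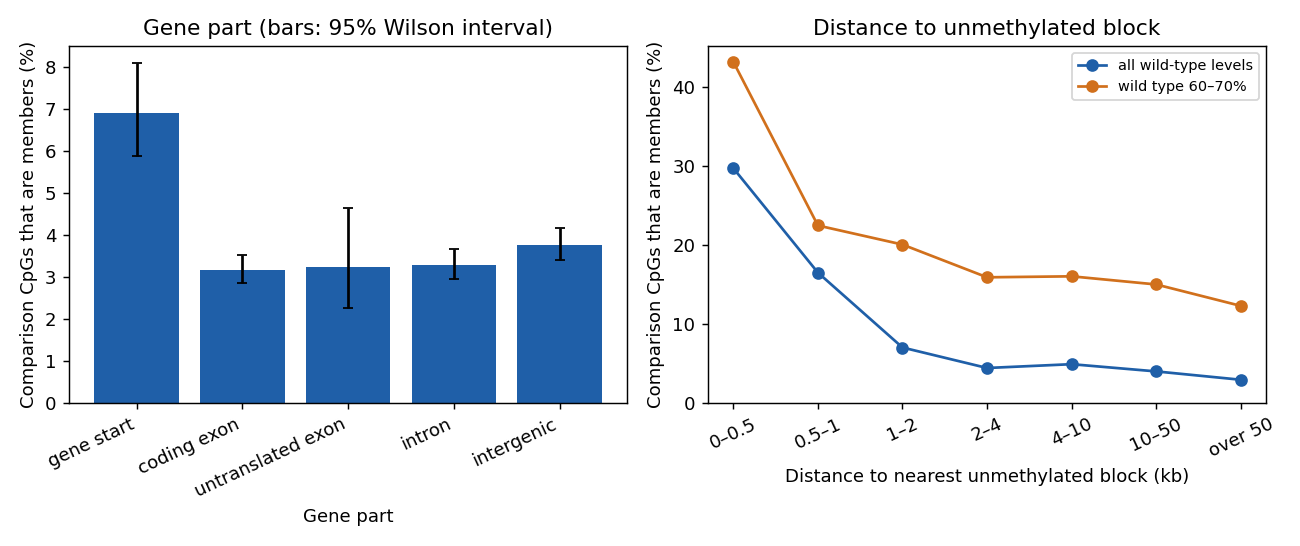
Share of comparison CpGs that are strongly Dnmt3a-dependent (%) by gene part (left, bars with 95% Wilson intervals) and by distance to the nearest unmethylated block in kb (right), for all wild-type levels (blue) and 60 to 70% in wild type (orange). Gene starts stand at 6.91% and the other parts at 3.16 to 3.76%, and the blue line falls from 29.7% within 0.5 kb to 2.88% over 50 kb.

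A protein-coding gene body or its 5000 bp upstream held 842 of the strongly dependent CpGs. They fell in 689 of 4717 genes with a comparison CpG, of which 526 had 1 and 62 had at least 3. Genes with the most are given by role, and their levels are those that chose them. Among signalling genes, Spred2, an inhibitor of Ras signalling, had 4 intronic CpGs of 14 (60.7 to 71.4% in wild type, 10.0 to 16.7% in Dnmt3a KO). Gpr179, an orphan receptor of retinal bipolar cells, had 4 of 9, while its other 5 CpGs averaged 81.3% in wild type and 69.3% in Dnmt3a KO. Rab11fip4, an effector of Rab11 in vesicle recycling, had 6 of 30 in 4 separate groups. P2rx7 and Ano8, which encodes a protein of the anoctamin family, had 6 of 15 and 4 of 13.

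Among genes of cell shape and adhesion, Krt18, a keratin of simple epithelia, had 4 of 9, within 90 bp across coding and intronic sequence (67.1 to 85.9% in wild type, 12.9 to 19.4% in Dnmt3a KO). Epb4.1l4a, a band 4.1 family gene, had 4 of 7 in an intron, with wild-type levels up to 92.3%. Odz2, which encodes a teneurin, had 4 of 23 in coding exons, and Igsf21, an immunoglobulin superfamily gene, 4 of 21. Cul9, a cullin of ubiquitin ligases, had 5 of 8 in coding exons (61.6 to 71.4%, 7.69 to 18.4%), and its other 3 were also low, at a mean of 26.8% in Dnmt3a KO. Mogat1, a monoacylglycerol acyltransferase, had 3 of 4 in an intron, 1.85 to 17.9% in Dnmt3a KO. All 3 comparison CpGs of Tbx5, a transcription factor of heart and forelimb, were strongly dependent, at 60.3 to 74.6% in wild type and 9.68 to 15.4% in Dnmt3a KO.

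Some genes share CpGs. Overlapping 4930404N11Rik and F630110N24Rik hold the same 6 near their starts, and Ankrd24 and the neighbouring Gm10778 hold the same 3. The model Gm20388 spans chr8:122434741-126869622, so its 24 of 972 belong to many genes, and the 5 at the start of 1700018B08Rik are among them. Its share, 2.47%, is below the 3.6% of all comparison CpGs.

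Of the gene groups, developmental transcription factors known as Polycomb targets had 10 strongly dependent CpGs among 79 comparison CpGs (12.7%), beside 3.62% over all protein-coding genes. These fell in 6 of 21 genes: Tbx5 with 3, Uncx and Vsx1 with 2 each, and Gsc, Pax2 and Tbx2 with 1 each. At Gsc, the organizer homeobox gene, the CpG went from 62.5% to 6.98%. Germline genes had 8 of 82 (9.76%), namely 3 of 16 in Dazl, an RNA-binding protein of germ cells, 2 each in Tdrd9 and Asz1, which act in the piRNA pathway, and 1 in Sohlh2, a germ cell transcription factor. Pluripotency genes had 2 of 10, with Esrrb at 63.6% in wild type and 9.09% in Dnmt3a KO and Sall4 at 82.0% and 17.4%. These groups also had lower wild-type means, 76.8% for the transcription factors, 74.2% for the germline genes and 72.6% for the pluripotency genes, beside 79.3% over all genes, and the part of this in the shares was not tested.

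Other groups were nearer to the share of all genes or below it. Actin and cytoskeleton linkers had 13 of 301 (4.32%), of which 4 were in Krt18 and 3 in Plec, the gene of the linker plectin. Cadherins and protocadherins had 5 of 160, imprinted genes 2 of 57 and signalling ligands 3 of 110, in Wnt3a, Wnt10a and Jag2. Polycomb subunits had 1 of 37, in Cbx6, and voltage-gated ion channel subunits 4 of 237 (1.69%). DNA methylation and demethylation enzymes had 0 of 61, which allows a share of up to 4.92% if these CpGs are taken as independent. Single clusters carry several of these counts, so they describe few loci.

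Strongly dependent CpGs were spread over the autosomes. The share of comparison CpGs ran from 2.62% on chromosome 1 (83 of 3174) to 5.45% on chromosome 19 (48 of 881), and the X chromosome had 3 of 92.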

How the data were processed

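The authors cut genomic DNA with MspI and took fragments of 150 to 250 and 250 to 350 bp. Their methods, in a section shared with other assays, describe filtering of reads and PCR duplicates and alignment to mm9. They deposited, per CpG, the count of all reads, the count of methylated reads and their ratio as a fraction. Counts per CpG cannot show whether copies of the same molecule remain among the RRBS reads. The labels name Trim Galore and Bowtie. The deposited counts were used, and the fraction was recomputed from them. All 1386099 positions on placed chromosomes were a CG in the mm9 sequence, and 1925 on unplaced sequences have no annotation or sequence here. Gene parts come from GENCODE. CpGs were assigned to each protein-coding gene whose body or 5000 bp upstream held them. The 20 genes with the most strongly dependent CpGs were named, with ties taken by the larger share of their comparison CpGs and then by symbol, so many other genes with 3 are not named. The 10 largest clusters were named, with ties taken by the shorter length, so 1 of 12 clusters of 4 was taken. Members, gene lists and tests were chosen with earlier results of these data known. With 1 library per genotype no test between genotypes is possible. Wilson intervals (95%) cover counting error only, and CpGs on the same read are not independent. Of the gene lists, 1 gene is not reported here. Repeat content was not used here. Values were computed with Python 3.11.15, pandas 2.3.3, scipy 1.17.1 and pysam 0.24.0, and the steps were tested on simulated data.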

Additional observations from a re-analysis of the deposited data

How the results depend on the processing

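None of the 66 alternatives tried reversed a comparison. For the number of strongly dependent CpGs no reversal was defined, and a set range of 770 to 1732.5 served as its interval. Repeated random divisions of the same reads are also among the 66. In all, 31 stayed within the interval of the reported value and 35 moved out of it. Of the 66, 14 had been chosen after seeing the data. The number of strongly dependent CpGs was 4140 over 10 reads, 149 over 40 reads and 70 at 80% or above in wild type. It was 279 at 10% or below in Dnmt3a KO, 2742 at 30% or below and 2112 with 20 reads drawn per CpG. In this order these were 3.68, 4.84, 0.412, 0.870, 8.55 and 6.47% of the comparison CpGs of each setting, beside the reported 3.6%. In the same order after the first, the share of strongly dependent CpGs with another within 1000 bp was 45.6, 21.4, 29.7, 54.7 and 47.4%. Of comparison CpGs, 7.44, 0.595, 1.76, 16.4 and 12.8% had a strongly dependent CpG that near. Among strongly dependent CpGs the share was 31.8% at 60 to 70% in wild type and 3.896% beyond 200 bp. Comparison CpGs had 12.8 and 1.07% there. The share at gene starts was 19.5% over 40 reads, 10.1% at 80% or above, 7.45% with a window of 500 bp and 20.4% with 2000 bp. In this order, 9.18, 4.996, 4.21 and 10.5% of comparison CpGs lay at gene starts, so the comparison share also rose with the wider window. The share near blocks was 14.6% over 10 reads, 2.68% over 40 and 8.57% at 80% or above. It was 8.60% at 10% or below, 8.72% at 30% or below and 6.93% within 2000 bp. Comparison CpGs had 6.94, 2.31, 3.87, 4.94, 4.94 and 2.01% near blocks in this order. The share of strands followed by C was 45.5% over 10 reads, 57.4% over 40, 58.96% at 80% or above and 55.3% at 10% or below. It was 45.6% at 30% or below, 44.8% with 20 reads drawn and 46.1% at 60 to 70% in wild type. For comparison CpGs this share was 30.9, 34.3, 34.0, 31.7, 31.7, 31.8 and 28.8% in this order. The Dnmt3a KO level in reads not used for choosing ran from 17.3 to 20.6% over 10 divisions of the reads, 17.8% among them. Dnmt TKO had 0.0650% over 20 reads, beside 0.343% for comparison CpGs. Shallow CpGs near strongly dependent CpGs had 52.1% beyond 200 bp, beside 66.0% for those with no strongly dependent CpG near. The causes were not tested. Genes and lists were not recomputed. With 1 library per genotype no library could be left out. Depth in Dnmt3a KO, with a median of 17 reads over all listed CpGs, limits which CpGs are called, so single CpGs near the limits are uncertain. No paired analysis was possible because each genotype has 1 library.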
